A study of Mus musculus with 106 samples.

Results

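Interscapular brown adipose tissue (iBAT) of mice adapted to 10 °C was compared with iBAT of mice kept at 22 °C. The comparison rests on 6 of the 106 samples of the series, chosen by their labels: 3 iBAT libraries from the cold group and 3 from the 22 °C group, all in the raw count table of 8 tissues. The animals were wild type male C57BL/6J mice by the study's methods (C57BL/6 in the labels), 11 weeks old by the labels. The temperatures come from those methods, since the treatment text of the labels reads the same, 4 weeks at 34 °C, for these libraries too. Cold mice passed through 18 °C and then 14 °C, each for 5 days, before 2 weeks at 10 °C, and the control mice stayed at 22 °C, a temperature that is itself below thermoneutrality for a mouse. Each library pooled the RNA of 2 mice, so 6 animals stand behind each group and the spread between single animals cannot be seen. The tissue was bulk iBAT, and a lower level of a transcript cannot be told apart from fewer cells that carry it.

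Brown adipocytes burn fatty acids and glucose in mitochondria whose inner membrane is uncoupled by UCP1. Noradrenaline from sympathetic nerves acts through β-adrenergic receptors and cAMP, and releases fatty acids from lipid droplets, opens UCP1 and induces thermogenic genes. In a cold-adapted animal the tissue both oxidises lipid and makes new fatty acids from glucose, so synthesis and oxidation can run side by side. The enzymes of fatty acid synthesis answer to SREBP1 and ChREBP (Mlxipl), those of cholesterol synthesis to SREBP2.

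The 6 libraries held 11627535 to 23222905 counted reads and 15657 to 16152 genes with at least 1 read, and the 10 most abundant genes took 11.1 to 17.8% of the counts. Markers of brown adipocytes were high in both groups: Ucp1 stood at 5412, 4093 and 8276 CPM at 22 °C and 9136, 12794 and 10442 CPM at 10 °C, and Cidea, a lipid droplet protein of brown fat, at 2079.7, 2407 and 2825 CPM at 22 °C and 2241, 2439 and 2430.3 CPM at 10 °C. Levels below are CPM (reads of a gene relative to all counted reads of its library) scaled by TMM, the trimmed mean normalisation of edgeR, in the order of the library numbers, and pairs of means give 22 °C first. Differences are log2 fold changes of 10 °C over 22 °C (log2FC) with their standard errors, n = 3 libraries per group, from edgeR's quasi-likelihood test. A gene is called higher or lower at a Benjamini-Hochberg adjusted p under 0.05 over all 12791 genes tested.

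Between the groups 1445 of 12791 genes differed, 11.3% of those tested: 796 (6.22%) were higher and 649 (5.07%) lower at 10 °C. Among them 261 higher and 261 lower genes moved by more than 2-fold, and the median called gene was 1.71-fold higher or 1.84-fold lower. The CPM values of the groups did not overlap in 1443 of the 1445 called genes, the exceptions being Cish and Sncg; over all genes tested, 33.3% had groups that did not overlap. The direction of small changes depended on scaling. With library size in place of TMM the median log2FC of all genes shifted by -0.16, to -0.18, and 489 genes (3.82%) were then called higher and 1449 (11.3%) lower. The first principal component, 57.5% of the variance, separated the 10 °C from the 22 °C libraries. Leaving out 10 °C library 3 reduced the calls to 353 higher and 229 lower, and leaving out 22 °C library 2 reduced them to 326 and 210.

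**Figure D1:**
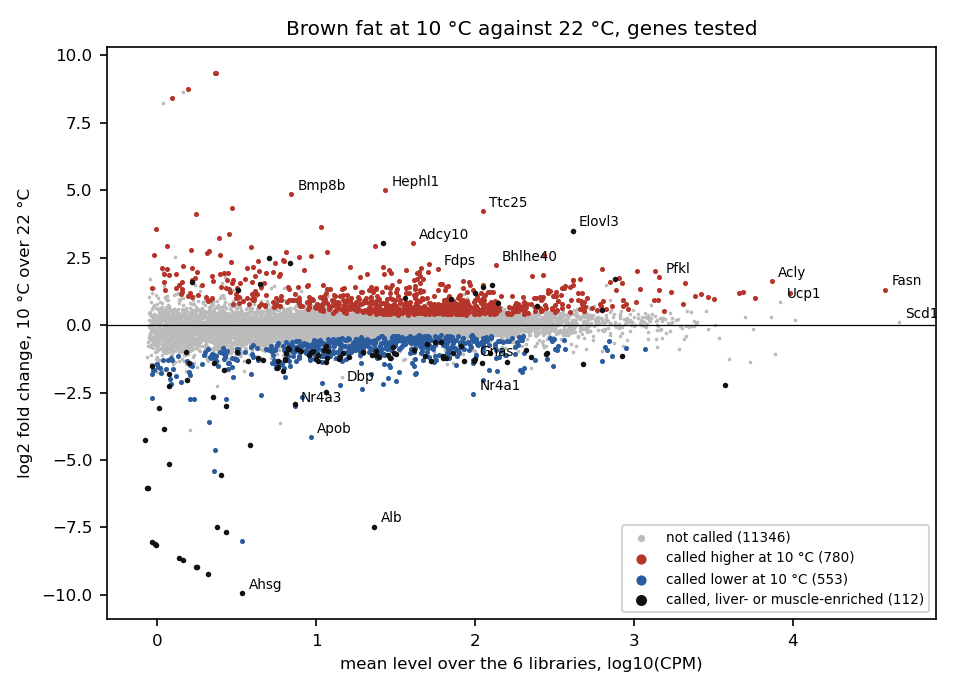
Mean level over the 6 iBAT libraries (log10 CPM, horizontal) against log2FC of 10 °C over 22 °C (vertical) for the 12791 genes tested; red and blue points were called higher or lower, grey points were not called, and black points are called genes enriched in liver or skeletal muscle. At the top left lie Gpx5, Adam7, Crisp1 and Defb20, which had no reads at 22 °C, and below them Hephl1, Bmp8b and Ttc25; albumin (Alb) and other hepatocyte transcripts lie at the bottom left, and Fasn at the far right among the genes that rose.

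Transcripts of other organs moved between the groups and are given first. The summed level of 38 hepatocyte markers was 118, 151 and 192 CPM at 22 °C and 15.9, 17.5 and 12.0 CPM at 10 °C, a 10.1-fold difference with no overlap (exact permutation test, two-sided, p = 0.1, the smallest that 3 against 3 libraries can give). Of the 23 hepatocyte markers that could be tested 21 were called lower by edgeR and 0 higher (1 higher at an unadjusted p under 0.05, 0 by DESeq2 and 1 by the exact test), with a median log2FC of -5.15. Of 37 markers with at least 50 CPM in liver, 16, 14 and 21 had 0 reads in the 10 °C libraries, and every one had reads in each 22 °C library. Markers thus passed the filter for testing mainly through their 22 °C reads, so the share called is no further support for the fall. Alb, the main plasma protein made by hepatocytes (chr5:90460897-90476602, GRCm38), had 33.6, 42.95 and 62.6 CPM at 22 °C and 0.346, 0.408 and 0 CPM at 10 °C (log2FC = -7.47 ± 0.45, adjusted p = 0.000146). Ahsg, which encodes fetuin-A, had no read in any 10 °C library and 53 to 222 reads in the 22 °C libraries, at least 42.1-fold lower against a floor of 3 reads per library. In the 22 °C iBAT libraries Alb stood at 0.0741, 0.0886 and 0.129% of its mean level in the 22 °C liver libraries. Across 37 hepatocyte markers this percentage had a median of 0.088% and quartiles of 0.0861 and 0.106%, with extremes of 0.0527 and 0.340%. Cps1, an enzyme of the urea cycle, and Apob, the protein of lipoprotein particles, were the largest falls outside the liver-enriched set among genes with a mean of at least 5 CPM at 22 °C, and both are also known in small intestine, which the rule for that set counts against a gene; Cps1 had 5.54, 6.94 and 7.84 CPM at 22 °C and 0, 0.06798 and 0 CPM at 10 °C and Apob had 13.3, 17.6 and 21.7 CPM at 22 °C and 0.792, 1.09 and 1.14 CPM at 10 °C.

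Skeletal muscle transcripts also differed, at far higher levels. The 40 muscle markers summed to 30123, 22058 and 24236 CPM at 22 °C and to 15154, 16341 and 7383 CPM at 10 °C, a 2.07-fold difference with no overlap (exact permutation test, two-sided, p = 0.1). All 39 muscle markers tested had a log2FC below 0, with a median of -0.93 beside -0.02 for all genes, and 8 of them were called lower. Myh4, a fast myosin heavy chain, had 2739, 2299.5 and 2389 CPM at 22 °C and 1255, 2009.6 and 792 CPM at 10 °C and was not called (log2FC = -0.87 ± 0.30, adjusted p = 0.0941). Myh2, the heavy chain of another fast fibre type, was called, with 110.05, 174 and 197 CPM at 22 °C and 71.7, 58.3 and 53.2 CPM at 10 °C (log2FC = -1.39 ± 0.21, adjusted p = 0.00506). The muscle count moved with the libraries, to 13 without 10 °C library 1 and to 4 without 22 °C library 1 or 22 °C library 2. DESeq2 and the edgeR exact test called 20 and 19 muscle markers lower, beside 896 and 1045 lower among all genes. Among 155 genes enriched in quadriceps 58 (37.4%) were called lower and 2 higher, and among 103 genes enriched in liver 38 (36.9%) were lower and 14 (13.6%) higher. Enriched genes had at least 50 CPM in that organ at 22 °C and 20 times the highest reference mean. References were brain, hypothalamus, spleen and ileum for liver, and ileum, brain and liver for quadriceps. No fat was among them, so genes that brown fat itself expresses can enter both sets. The liver-enriched genes summed to 5.86, 5.97 and 7.71% of their liver level in the 22 °C iBAT libraries. Of the remaining 12533 genes 780 (6.22%) were higher and 553 (4.41%) lower.

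Transcripts of the epididymis went the other way. Gpx5, a glutathione peroxidase secreted by the epididymis, had 51, 34 and 144 reads in the 10 °C libraries and 0 in each 22 °C library. Adam7, another epididymal gene, had 24, 14 and 185 reads at 10 °C and again 0 at 22 °C. A set of 12 epididymal genes, put together after these values were seen, summed to 155, 109 and 954 reads at 10 °C and to 8, 11 and 10 reads at 22 °C. Of the 22 °C reads 7, 11 and 10 were of Rnase10, which had 12, 13 and 28 reads at 10 °C. The same 12 genes reached between 932 and 2663 CPM in the 22 °C visceral fat libraries, and between 6.49 and 48830 CPM in the cold ones. These values stand beside the called rises of Gpx5, Adam7, Crisp1 and Defb20, and 10 °C library 3 carried most of the reads. How these transcripts came into the libraries was not tested.

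**Figure D2:**
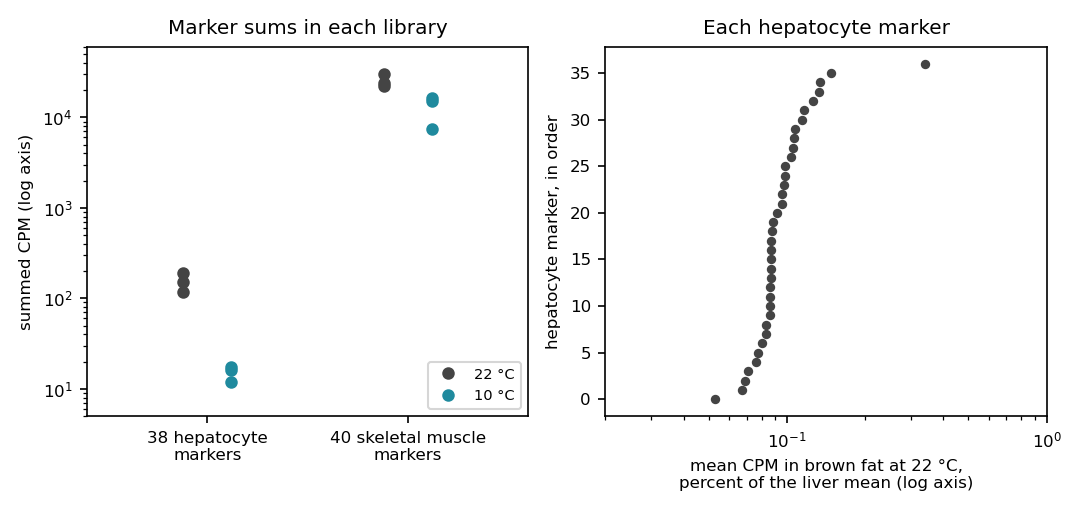
Left, summed CPM (log axis) of 38 hepatocyte and 40 skeletal muscle markers in each iBAT library at 22 °C (grey) and 10 °C (teal). Right, the mean CPM of each of 37 hepatocyte markers in the 22 °C iBAT libraries as a percentage of its mean in the 22 °C liver libraries (log axis), in rank order; most lie close to 0.088%.

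Outside these sets, and among called genes with a mean of at least 5 CPM in the higher group, the largest rises were of genes with low levels in iBAT at 22 °C. Hephl1, a copper-dependent ferroxidase (chr9:15051841-15112108), had 2.496, 1.902 and 0.834 CPM at 22 °C and 52.3, 60.02 and 45.2 CPM at 10 °C (log2FC = 4.999 ± 0.30, adjusted p = 0.000146). Bmp8b, a secreted factor of the bone morphogenetic protein family that raises the response of brown fat to noradrenaline, had 0.468, 0.224 and 0.626 CPM at 22 °C and 8.76, 20.1 and 11.6 CPM at 10 °C (log2FC = 4.87 ± 0.43, adjusted p = 0.000483). Both genes were thus low in every 22 °C library and clear in each cold library. Bmp8b overlaps Ppie on the opposite strand and Oxct2b on its own, and the counting is not stated to use strand, so reads in the shared stretch may not all be counted for Bmp8b. Ttc25, known as an outer dynein arm docking protein of cilia, had 18.6, 13.8 and 2.63 CPM at 22 °C and 244, 191 and 206 CPM at 10 °C (log2FC = 4.24 ± 0.55, adjusted p = 0.00239). Adcy10, the soluble adenylyl cyclase that answers to bicarbonate and calcium, had 13.7, 8.501 and 4.67 CPM at 22 °C and 68.9, 78.5 and 69.6 CPM at 10 °C (log2FC = 3.05 ± 0.31, adjusted p = 0.000902).

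Hcn2, a cyclic nucleotide-gated channel of pacemaker cells, had 1.33, 1.73 and 1.67 CPM at 22 °C and 16.03, 24.5 and 19.02 CPM at 10 °C (log2FC = 3.63 ± 0.22, adjusted p = 0.000146). Abcc8, the sulfonylurea receptor subunit of the KATP channel, rose from a mean of 0.901 to 6.89 CPM (log2FC = 2.89 ± 0.31, adjusted p = 0.00102), and Kcnj11, which forms the pore of the same channel and changed less, rose from a mean of 13.2 to 21.7 CPM (log2FC = 0.73 ± 0.16, adjusted p = 0.0215). Maff, a small MAF transcription factor, had 6.01, 6.82 and 3.75 CPM at 22 °C and 58.3, 24.2 and 42.4 CPM at 10 °C (log2FC = 2.94 ± 0.34, adjusted p = 0.00134). Ak4, a mitochondrial adenylate kinase, had 2.96, 2.57 and 2.42 CPM at 22 °C and 13.4, 17.7 and 16.3 CPM at 10 °C (log2FC = 2.58 ± 0.18, adjusted p = 0.000194). Tjp3, a tight junction protein, rose from a mean of 3.13 to 20.3 CPM, Cpne5, a calcium-dependent phospholipid-binding protein, from a mean of 0.464 to 5.18 CPM, and Rspo4, a ligand that enhances Wnt signalling, from a mean of 0.3298 to 5.57 CPM. The call for Kcnj11 was lost with library size only, and without 10 °C library 1 or 22 °C library 2.

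Some liver-enriched genes rose, in contrast to the hepatocyte markers. Marc1, which reduces N-hydroxylated compounds at the outer mitochondrial membrane, had 6.71, 6.71 and 3.75 CPM at 22 °C and 49.3, 45.3 and 46.3 CPM at 10 °C (log2FC = 3.06 ± 0.21, adjusted p = 0.000194). Ttpa, the transfer protein for vitamin E, rose from a mean of 2.38 to 11.4 CPM (log2FC = 2.29 ± 0.22, adjusted p = 0.000691), and Acot12, a cytosolic acetyl-CoA thioesterase, from a mean of 1.51 to 8.64 CPM (log2FC = 2.49 ± 0.31, adjusted p = 0.00187). Car3, a carbonic anhydrase abundant in adipocytes as well as in liver and muscle, fell in the opposite direction with 5860.4, 6012 and 6669 CPM at 22 °C and 1475, 1214 and 1265 CPM at 10 °C (log2FC = -2.23 ± 0.18, adjusted p = 0.000374).

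Nuclear receptors of the NR4A family were among the largest falls outside the liver and muscle transcripts. Nr4a3 had 13.2, 10.46 and 15.5 CPM at 22 °C and 1.39, 2.31 and 1.21 CPM at 10 °C (log2FC = -3.01 ± 0.27, adjusted p = 0.000483), Nr4a1 had 96.01, 162 and 243 CPM at 22 °C and 15.8, 31.9 and 37.2 CPM at 10 °C (log2FC = -2.57 ± 0.38, adjusted p = 0.00453), and Nr4a2 had 37.8, 44.4 and 35.4 CPM at 22 °C and 11.5, 16.2 and 15.4 CPM at 10 °C (log2FC = -1.45 ± 0.16, adjusted p = 0.00109). These receptors have no known required ligand and are induced within minutes by cAMP, and all 3 were lower in every cold library. Irs2, the adaptor below the insulin receptor, had 108, 178 and 256 CPM at 22 °C and 30.4, 78.3 and 23.98 CPM at 10 °C (log2FC = -2.04 ± 0.45, adjusted p = 0.0223). Rasd1, a small GTPase induced by glucocorticoid, had 49.4, 53.5 and 51.8 CPM at 22 °C and 17.1, 8.97 and 10.3 CPM at 10 °C (log2FC = -2.08 ± 0.22, adjusted p = 0.000956). Btc, which encodes the epidermal growth factor receptor ligand betacellulin, fell from a mean of 17.9 to 3.996 CPM (log2FC = -2.15 ± 0.21, adjusted p = 0.000734), and Cntfr, a receptor subunit for ciliary neurotrophic factor, from a mean of 13.96 to 2.27 CPM (log2FC = -2.65 ± 0.67, adjusted p = 0.0351). Nnat, an imprinted gene of adipocytes, had 19.1, 49.8 and 60.8 CPM at 22 °C and 9.995, 9.52 and 9.03 CPM at 10 °C (log2FC = -2.19 ± 0.36, adjusted p = 0.00677) and lies within Blcap on the opposite strand. Vat1l, Rnf182 and Dbp complete the 12 largest falls outside the enriched sets among genes with a mean of at least 5 CPM at 22 °C; Vat1l fell from a mean of 32.5 to 6.33 CPM and Rnf182, a ubiquitin ligase, from a mean of 7.77 to 1.29 CPM. Cntfr and Irs2 lost their calls without 10 °C library 1, 10 °C library 3 or 22 °C library 2, and Cntfr also without 10 °C library 2 or 22 °C library 3.

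Gene lists of known function were then counted against the background of 6.22% higher and 5.07% lower. The highest shares of rises were in cholesterol synthesis (15 of 24), fatty acid synthesis and its control (16 of 29), glucose uptake and glycolysis (17 of 37) and glycogen (7 of 22). Among the function lists the highest share of falls was in the clock list, where 4 of 19 were lower and 5 higher. Among the lists below the background in both directions by edgeR were the nuclear-encoded respiratory chain, with 3 of 84 higher and 1 lower, the citric acid cycle, with 0 of 20 in either direction at the adjusted limit, and cytosolic ribosomal proteins, with 1 of 78 higher and 2 lower. For the citric acid cycle DESeq2 and the exact test called 2 and 1 members higher, and 3 of the 20 had an unadjusted p under 0.05. For cytosolic ribosomal proteins both other tools called 6 lower. The 83 cytosolic ribosomal genes in the table summed to only 3450 to 4440 CPM per library. How many of their reads were lost to near-identical pseudogenes was not tested, so their counts are uncertain. The respiratory chain had 12 higher by DESeq2 and 8 by the exact test. Over all genes tested DESeq2 called 1096 higher and 896 lower, and the exact test 1079 and 1045. With library size only the balance of several lists changed: the clock list had 4 higher and 5 lower, creatine and calcium cycling 2 and 7, lipid uptake 4 and 4, branched-chain amino acids 3 and 3, peroxisomal oxidation 1 and 3, and the respiratory chain 1 and 1. Acaca, Mlxipl, Srebf1, Pgk1, Slc2a4, Gys2, Cox7a1, Ryr2, Edn1, Mki67 and Hba-a1, all described below as higher, were not called under that scaling. Where members named below are neither among the smallest p of their list nor key genes chosen earlier, they were taken to follow a pathway step by step after their values had been seen; these are Aacs, Acacb, Acat2, Adcy9, Aldoa, Aqp1, Car3, Chordc1, Col12a1, Eno1, Eno3, Gpd1, Lss, Me1, Mpc1, Mpc2, Mvd, Npas2, Nsdhl, Pdhb, Pfkm, Pfkp, Pgam2, Pkm, Pmvk, Ppargc1b, Pygl, Sc5d, Slc25a1, Tecr and Thrsp.

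**Figure D3:**
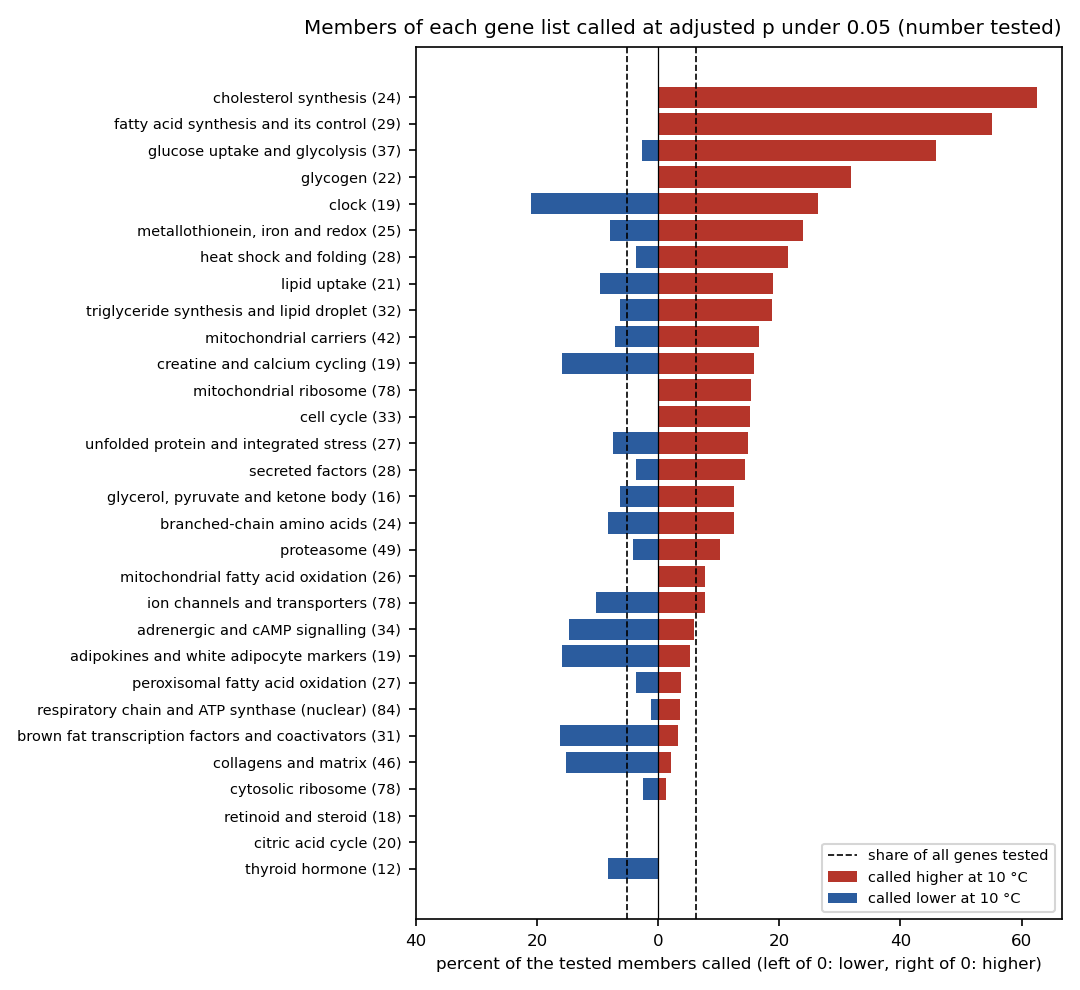
Percentage of tested members called higher (red, right of 0) or lower (blue, left of 0) at 10 °C for each function list, with the number tested in brackets; dashed lines mark the share over all genes tested, 6.22% higher and 5.07% lower. Cholesterol synthesis, fatty acid synthesis and glycolysis stand at the top with few or no falls, and the clock list has bars on both sides.

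In fatty acid synthesis all 29 members tested had a log2FC above 0, with a median of 0.94 beside -0.02 for all genes tested; 0 were lower at an unadjusted p under 0.05 by edgeR, by DESeq2 or by the exact test. Acly, which splits citrate into the acetyl-CoA used for synthesis (chr11:100476353-100528000), had 4512, 4713 and 1511 CPM at 22 °C and 9917, 12385 and 11240 CPM at 10 °C (log2FC = 1.64 ± 0.39, adjusted p = 0.028). The carboxylases that make malonyl-CoA rose as well, Acaca with 1879, 2139.8 and 913 CPM at 22 °C and 3265, 4103 and 3690.1 CPM at 10 °C (log2FC = 1.17 ± 0.29, adjusted p = 0.0361) and Acacb from a mean of 2179 to 4254 CPM (log2FC = 0.97 ± 0.20, adjusted p = 0.0177). Fasn, the fatty acid synthase (chr11:120805846-120824547), had the highest mean at 10 °C of any gene in the count table. That table holds no genes encoded by mitochondrial DNA. Fasn stood at 18572, 32007 and 15010 CPM at 22 °C and 42755, 69286 and 51823 CPM at 10 °C (log2FC = 1.32 ± 0.36, adjusted p = 0.0449). Every cold library stood above every control library for these enzymes. Me1, the malic enzyme that supplies NADPH, had 312, 290 and 117 CPM at 22 °C and 1088, 978 and 997 CPM at 10 °C (log2FC = 2.09 ± 0.32, adjusted p = 0.00517). Slc25a1, the mitochondrial citrate carrier, rose from a mean of 619 to 1556 CPM (log2FC = 1.33 ± 0.25, adjusted p = 0.012), and Aacs, a cytosolic ligase that activates acetoacetate for lipid synthesis, from a mean of 353 to 1062 CPM (log2FC = 1.59 ± 0.26, adjusted p = 0.0066). Scd1, the main stearoyl-CoA desaturase, was abundant in both groups, which overlapped, with 43635, 61640 and 27901 CPM at 22 °C and 47319, 46639 and 51196 CPM at 10 °C (log2FC = 0.12 ± 0.33, adjusted p = 0.839).

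Regulators of the pathway were among the members that rose. Thrsp, the thyroid hormone responsive protein that promotes lipogenesis, had 3390, 3435 and 1910.4 CPM at 22 °C and 7283, 6047 and 7176 CPM at 10 °C (log2FC = 1.23 ± 0.25, adjusted p = 0.0163). Mid1ip1, its paralogue, which activates acetyl-CoA carboxylase, had 47.3, 46.1 and 30.3 CPM at 22 °C and 147, 110.5 and 124 CPM at 10 °C (log2FC = 1.63 ± 0.19, adjusted p = 0.00132). Mlxipl, encoding ChREBP, rose from a mean of 233 to 435 CPM (log2FC = 0.90 ± 0.20, adjusted p = 0.0238) and Srebf1 from a mean of 367 to 588 CPM (log2FC = 0.68 ± 0.16, adjusted p = 0.0271). The chain-elongation enzymes Hsd17b12, Hacd2 and Tecr, which complete each elongation round after the ELOVL condensing enzymes, rose by log2FC 1.02 ± 0.13, 1.24 ± 0.15 and 0.57 ± 0.12. Elovl5 rose from a mean of 202 to 528 CPM. With library size only, 13 of the 29 were called higher and 0 lower, and without 10 °C library 3 the count was 8. Acaca, Mlxipl and Srebf1 were among those lost under that scaling. Several calls were lost when single libraries were left out: Acly without 10 °C library 2, 10 °C library 3 or 22 °C library 2, Fasn without 10 °C library 2, 10 °C library 3, 22 °C library 1 or 22 °C library 3, Acaca without any of the libraries but 22 °C library 3, Mlxipl without 10 °C library 1, 10 °C library 3 or 22 °C library 2, and Srebf1 without 10 °C library 2, 10 °C library 3 or 22 °C library 1. Acacb and Tecr lost theirs without 10 °C library 3, 22 °C library 1 or 22 °C library 2, and Thrsp without 10 °C library 3.

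In cholesterol synthesis 23 of 24 members had a log2FC above 0, with a median of 1.003, and 0 were lower at an unadjusted p under 0.05 or by the other tools. The step that makes farnesyl pyrophosphate, catalysed by Fdps (chr3:89093588-89101959), showed the largest rise, with 25.9, 27.01 and 14.1 CPM at 22 °C and 88.7, 102 and 91.5 CPM at 10 °C (log2FC = 2.08 ± 0.22, adjusted p = 0.00102). Upstream of it Mvd, the mevalonate decarboxylase, had 11.1, 9.96 and 5.55 CPM at 22 °C and 35.97, 29.98 and 32.6 CPM at 10 °C (log2FC = 1.91 ± 0.23, adjusted p = 0.00175) and Pmvk, the preceding kinase, rose from a mean of 72.1 to 169 CPM. Downstream Sqle, the squalene epoxidase, had 25.7, 21.4 and 12.2 CPM at 22 °C and 58.5, 61.9 and 67.5 CPM at 10 °C (log2FC = 1.68 ± 0.23, adjusted p = 0.00342). Among the enzymes from the cyclisation of squalene epoxide onward Lss rose from a mean of 56.2 to 138 CPM, Cyp51 from a mean of 48.8 to 137 CPM, Nsdhl from a mean of 37.1 to 91.6 CPM and Sc5d from a mean of 101 to 356 CPM. Hmgcs1, a synthase early in the pathway, was not called, at 346 and 445 CPM in the mean (log2FC = 0.36 ± 0.20, adjusted p = 0.276). The 15 members called higher became 13 with library size only, and 12 to 16 when single libraries were left out.

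**Figure D4:**
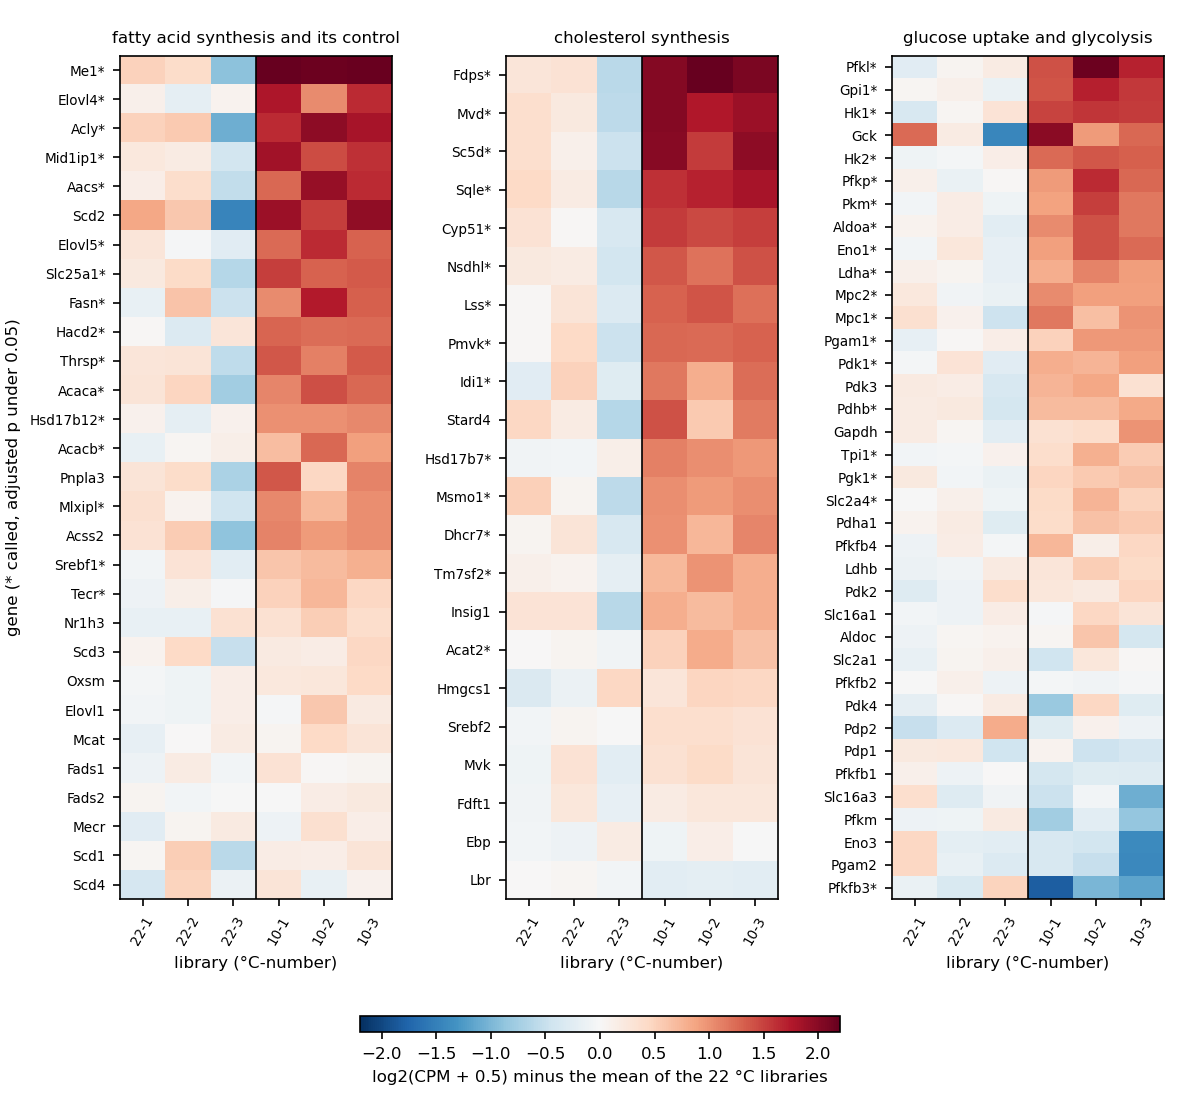
Colour gives log2(CPM + 0.5) minus the mean of the 22 °C libraries for tested members of 3 lists (rows, ordered by log2FC) in the 3 libraries at 22 °C and the 3 at 10 °C (columns); a star marks a called gene. The 10 °C columns are red in the upper rows of each list, Fasn, Fdps and Pfkl included, and near white for Scd1.

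RefSeq promoter windows (GRCm38.p6, 250 bases before to 50 after each start) were searched on both strands for the sterol response motif CACCCCAC. It occurred in 2 of 18 cholesterol genes and 2 of 27 fatty acid genes with a window, and in 3.30% of all 27025 genes. Among called genes it was found in Acat2, a cytosolic thiolase (from a mean of 143 to 226 CPM), and in Tecr. That is 1 of 12 called cholesterol genes with a window, beside 1 of 6 not called. For the fatty acid genes it is 1 of 16 called, beside 0 of 9 not called. These stretches are shown because both genes rose; the capitals mark the motif, and both run along the minus strand of the genome, Acat2 at chr17:12960859-12960946 and Tecr at chr8:83594466-83594553.
Acat2: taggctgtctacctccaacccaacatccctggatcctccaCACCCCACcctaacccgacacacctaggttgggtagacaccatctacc
Tecr: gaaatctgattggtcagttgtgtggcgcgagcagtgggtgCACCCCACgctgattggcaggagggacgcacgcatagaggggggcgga

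Of the genes of glucose uptake and glycolysis 17 of 37 were higher and 1 lower, with a median log2FC of 0.57. Of the hexokinases, which trap glucose in the cell, Hk2 had 412, 425 and 486 CPM at 22 °C and 1040.5, 1139 and 1101 CPM at 10 °C (log2FC = 1.31 ± 0.14, adjusted p = 0.000956) and Hk1 rose from a mean of 32.2 to 92.4 CPM (log2FC = 1.52 ± 0.16, adjusted p = 0.000959). Gpi1, the next enzyme, had 437, 457 and 383 CPM at 22 °C and 1109, 1395 and 1251 CPM at 10 °C (log2FC = 1.56 ± 0.15, adjusted p = 0.000734). Of the phosphofructokinases, which catalyse the committed step, Pfkl, the liver form, had 546, 679 and 739 CPM at 22 °C and 1713, 2913 and 2111 CPM at 10 °C (log2FC = 1.78 ± 0.22, adjusted p = 0.00217) and Pfkp, the platelet form, rose from a mean of 167 to 412 CPM, while Pfkm, the muscle form, was at 239.6 and 159 CPM in the mean and was not called (log2FC = -0.60 ± 0.18, adjusted p = 0.0664). Aldoa rose from a mean of 2801 to 6406 CPM, Eno1 from a mean of 289 to 659 CPM, Pkm from a mean of 1036 to 2399.6 CPM and Ldha from a mean of 918 to 1759.6 CPM. The muscle forms Eno3 (-0.69 ± 0.29) and Pgam2 (-0.73 ± 0.28) had log2FC values below 0 and were not called. Pfkfb3, whose product fructose-2,6-bisphosphate activates phosphofructokinase, was the only called fall of the 37, with 787, 688 and 1228 CPM at 22 °C and 248, 435 and 388 CPM at 10 °C (log2FC = -1.34 ± 0.27, adjusted p = 0.0147).

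Genes for the entry of pyruvate into mitochondria were also higher. Mpc2, a subunit of the pyruvate carrier, had 687, 549.5 and 524 CPM at 22 °C and 1193, 1086 and 1093 CPM at 10 °C (log2FC = 0.94 ± 0.15, adjusted p = 0.00671), Mpc1, its partner, rose from a mean of 69.7 to 132 CPM, and Pdhb, a subunit of pyruvate dehydrogenase, from a mean of 553 to 911 CPM (log2FC = 0.72 ± 0.18, adjusted p = 0.0332). Slc2a4, the insulin-responsive glucose transporter GLUT4 and a member of the muscle-enriched set, rose from a mean of 513 to 757 CPM (log2FC = 0.56 ± 0.14, adjusted p = 0.0365). Pdk4, the kinase that inhibits pyruvate dehydrogenase in fasting, overlapped between groups (log2FC = -0.12 ± 0.29, adjusted p = 0.827). With library size only, 12 of the 37 were called higher and 3 lower. The count fell to 10 without 10 °C library 3 and to 11 without 22 °C library 2, and of the single-library omissions Slc2a4 kept its call only without 10 °C library 1. Mpc1 lost it without 10 °C library 1, 10 °C library 3 or 22 °C library 2, Pdhb also without 10 °C library 2, and all 3 with library size only. Gapdh (23.6 and 35.8 CPM), Pgk1 (21.1 and 31.3 CPM) and Pgam1 (19.9 and 35.3 CPM) had low means at 22 °C and 10 °C; many near-identical pseudogenes exist for them, so their counts are uncertain.

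Glycogen genes that rose belong to both synthesis and breakdown. Ppp1r3b, a glycogen-targeting subunit of protein phosphatase 1, had 400.3, 398 and 257 CPM at 22 °C and 1177, 1115 and 1207 CPM at 10 °C (log2FC = 1.73 ± 0.19, adjusted p = 0.00113), and Ppp1r3c, another such subunit, rose from a mean of 174 to 359 CPM (log2FC = 1.04 ± 0.17, adjusted p = 0.00654). Ugp2, which makes UDP-glucose, rose from a mean of 303 to 582 CPM, Gbe1, the branching enzyme, from a mean of 472 to 774 CPM, Gys2, a glycogen synthase, from a mean of 102 to 179 CPM, and Pygl, the liver form of glycogen phosphorylase, from a mean of 963 to 1858 CPM. Of 22 members 7 were higher and 0 lower by edgeR; 4 had lower values at an unadjusted p under 0.05, and DESeq2 and the exact test called 1 and 3 lower. Under library-size scaling 5 were higher and 3 lower. Single libraries mattered: the count was 3 without 10 °C library 2 or 10 °C library 3, 4 without 22 °C library 1 and 2 without 22 °C library 2. Pygl lost its call without 10 °C library 2, 10 °C library 3, 22 °C library 1 or 22 °C library 2, Gbe1 without 10 °C library 2, 10 °C library 3 or 22 °C library 2, Gys2 without any single library but 22 °C library 3, and Ugp2 without 22 °C library 2. Ppp1r3b and Gys2 belong to the liver-enriched set, and 6 of the 22 to the muscle-enriched set, none of which was called.

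Genes of the lipid droplet moved in both directions. Plin2, a coat protein of droplets, had 776, 822 and 904 CPM at 22 °C and 1743, 2417 and 1967 CPM at 10 °C (log2FC = 1.29 ± 0.17, adjusted p = 0.00267), whereas Plin4, another perilipin, had 959, 1131 and 1351 CPM at 22 °C and 463, 836 and 608 CPM at 10 °C (log2FC = -0.85 ± 0.23, adjusted p = 0.0443). Gpd1, which makes glycerol-3-phosphate from glycolysis, had 5206, 6198 and 6256 CPM at 22 °C and 11547, 15568 and 13340 CPM at 10 °C (log2FC = 1.20 ± 0.21, adjusted p = 0.00939). Agpat2, the acyltransferase that makes phosphatidic acid, rose from a mean of 1567 to 3285 CPM (log2FC = 1.07 ± 0.16, adjusted p = 0.00418), Lpin1, the next phosphatase, from a mean of 652 to 1131 CPM (log2FC = 0.80 ± 0.14, adjusted p = 0.0089), and Mogat1, which acylates monoacylglycerol, from a mean of 7.08 to 15.996 CPM (log2FC = 1.18 ± 0.13, adjusted p = 0.00113). Gpat3 fell from a mean of 34.3 to 9.801 CPM (log2FC = -1.82 ± 0.37, adjusted p = 0.0151). Of 32 members tested 6 were higher and 2 lower, and the higher count was 11 without 22 °C library 3. The lipases Pnpla2 (0.24 ± 0.21) and Lipe (0.06 ± 0.20) were not called. Plin4 kept its call only without 10 °C library 2, and Gpat3 lost it without 10 °C library 3.

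For lipid uptake 4 of 21 members were higher and 2 lower. Among the higher ones were Fabp5, a fatty acid binding protein (from a mean of 25.9 to 56.5 CPM), Angptl8, a regulator of lipoprotein lipase (from a mean of 26.4 to 57.2 CPM, overlapping Dock6), and Lipa, the lysosomal acid lipase (from a mean of 157 to 268 CPM). Angptl4, which inhibits lipoprotein lipase, had 382, 483 and 419 CPM at 22 °C and 206, 267 and 206 CPM at 10 °C (log2FC = -0.92 ± 0.15, adjusted p = 0.00755), and Apoe fell from a mean of 1005 to 454 CPM (log2FC = -1.15 ± 0.20, adjusted p = 0.00937). Lpl itself overlapped, with 2747, 2524 and 4479.5 CPM at 22 °C and 2804, 3868 and 3178 CPM at 10 °C (log2FC = 0.01 ± 0.25, adjusted p = 0.978), and so did the fatty acid transporter Cd36 (log2FC = -0.15 ± 0.16, adjusted p = 0.571). Lipa lost the call without 10 °C library 3 or 22 °C library 2.

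The lists for fatty acid oxidation, which also hold genes that activate or hydrolyse acyl-CoA, showed 2 rises among 26 mitochondrial members and 0 falls by edgeR, DESeq2 or the exact test (also 0 at an unadjusted p under 0.05), and 1 rise and 1 fall among 27 peroxisomal ones. Acsl5, an acyl-CoA synthetase whose gene overlaps Zdhhc6 on the opposite strand, had 656, 556 and 412 CPM at 22 °C and 1737, 2591 and 2189.6 CPM at 10 °C (log2FC = 2.01 ± 0.22, adjusted p = 0.00117), and Acot11, a thioesterase of brown fat also called BFIT, had 419, 468 and 357 CPM at 22 °C and 1433, 1905 and 1684 CPM at 10 °C (log2FC = 2.01 ± 0.17, adjusted p = 0.000436). Cpt1b, the muscle and brown fat form of the entry step into mitochondria, was not called (log2FC = -0.25 ± 0.19, adjusted p = 0.432), nor was Acadm, the medium-chain dehydrogenase (log2FC = -0.05 ± 0.18, adjusted p = 0.894). In peroxisomes Acox2, which belongs to the liver-enriched set, rose from a mean of 2.30 to 6.57 CPM and Abcd2, a transporter of very long acyl chains, fell from a mean of 177 to 94.7 CPM (log2FC = -0.90 ± 0.14, adjusted p = 0.00619). Among 16 genes of glycerol, pyruvate and ketone metabolism Got1 and Fbp2 were higher and 1 was lower, and Got1 lost its call without 22 °C library 2. The branched-chain amino acid list gave 3 higher (Slc25a44, Pcca and Mcee) and 2 lower of 24. Only 1 was higher without 10 °C library 3 or 22 °C library 2, and 0 were lower without 10 °C library 1, 10 °C library 2, 10 °C library 3 or 22 °C library 2. In both oxidation lists 5 were higher without 22 °C library 3, and DESeq2 called 5 mitochondrial and 3 peroxisomal members higher.

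The 84 nuclear-encoded respiratory chain and ATP synthase genes had a median log2FC of 0.20, and 74 lay above 0. Cox7a1, a cytochrome oxidase subunit of muscle and brown fat, had 572, 507 and 521 CPM at 22 °C and 846, 796 and 789 CPM at 10 °C (log2FC = 0.60 ± 0.13, adjusted p = 0.0183), and Cox6a2, a subunit of the muscle enzyme in the muscle-enriched set, fell from a mean of 41.2 to 17.5 CPM (log2FC = -1.22 ± 0.31, adjusted p = 0.0352). The 78 mitochondrial ribosomal proteins had a median of 0.21, and 12 were higher by edgeR, led by Mrpl54 (from a mean of 46.997 to 76.9 CPM, log2FC = 0.71 ± 0.10, adjusted p = 0.00413). Of these proteins 0 were lower by any of the 3 tools or at an unadjusted p under 0.05, where 27 were higher by edgeR. With library size only the medians of the 2 lists were 0.04 and 0.05, and 1 and 5 genes were called higher. The respiratory chain count was 1 without 10 °C library 1 or 10 °C library 3 and 0 without 22 °C library 2. The ribosomal count was 3 without 10 °C library 3 and 1 without 22 °C library 2. Among the 42 carriers 7 were higher and 3 lower: Slc25a32, which carries folate, rose from a mean of 47.1 to 122 CPM (log2FC = 1.38 ± 0.23, adjusted p = 0.0071), Slc25a44, which carries branched-chain amino acids, from a mean of 165 to 248 CPM (log2FC = 0.59 ± 0.10, adjusted p = 0.00937), and Slc25a42, which carries coenzyme A, fell from a mean of 138 to 64.5 CPM (log2FC = -1.10 ± 0.16, adjusted p = 0.00378). The carrier count was 4 without 10 °C library 3, 3 without 22 °C library 2 and 11 without 22 °C library 3, and 1 carrier was lower without 10 °C library 3. Cox7a1 lost the call without 10 °C library 1, 10 °C library 3 or 22 °C library 2, Slc25a44 without the last of these or 10 °C library 3, and Cox6a2 kept it only without 10 °C library 1 or 22 °C library 3.

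Thermogenic control genes moved in both directions. Ucp1 itself did not pass the limit although the groups did not overlap (log2FC = 0.86 ± 0.29, adjusted p = 0.085). Adrb3, the β3-adrenergic receptor of adipocytes, had 236, 303 and 293 CPM at 22 °C and 349, 498 and 440.2 CPM at 10 °C (log2FC = 0.63 ± 0.17, adjusted p = 0.0425). Gnas, which encodes the stimulatory G protein that couples it to adenylyl cyclase, had 127, 134 and 152 CPM at 22 °C and 55.3, 56.1 and 57.9 CPM at 10 °C (log2FC = -1.29 ± 0.11, adjusted p = 0.000421). The Adrb3 count was thus higher and the Gnas count lower in every cold library than in any 22 °C library. Counts are per gene and do not separate the transcripts of Gnas, so the level of the G protein transcript alone was not tested. Adcy3, an adenylyl cyclase, had groups that did not overlap but was not called (log2FC = 1.19 ± 0.38, adjusted p = 0.0778), and Adcy9 fell from a mean of 96.5 to 54.1 CPM (log2FC = -0.84 ± 0.16, adjusted p = 0.0134). Among 34 members of the adrenergic and cAMP list 2 were higher and 5 lower, the lower ones being Gnas, Adcy9 and the NR4A receptors, and the lower count was 10 without 10 °C library 2. With library size only 1 was higher and 10 lower. DESeq2 and the exact test each called 8 lower. Adcy9 lost its call without 10 °C library 3 or 22 °C library 2. Adrb3 lost its call with library size only, and also without 10 °C library 2, 10 °C library 3, 22 °C library 1 or 22 °C library 2.

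Of 31 transcription factors and coactivators of brown fat 5 were lower and 1 higher. Ppara, the nuclear receptor for fatty acids, had 328, 402 and 478 CPM at 22 °C and 86.2, 232 and 189.9 CPM at 10 °C (log2FC = -1.25 ± 0.32, adjusted p = 0.036). Cebpa, a factor of adipocyte differentiation, had 699.8, 906 and 914 CPM at 22 °C and 411, 556 and 486 CPM at 10 °C (log2FC = -0.79 ± 0.17, adjusted p = 0.019), and Ebf2, a factor that sets brown adipocyte identity, fell from a mean of 109.96 to 71.3 CPM (log2FC = -0.63 ± 0.10, adjusted p = 0.00699). Klf11 fell from a mean of 32.1 to 15.1 CPM and Ppargc1b, a coactivator of mitochondrial genes, from a mean of 134 to 86.6 CPM (log2FC = -0.63 ± 0.16, adjusted p = 0.0373). Its paralogue Ppargc1a, known to be induced by acute cold, had 81.5, 83.6 and 166 CPM at 22 °C and 49.9, 54.2 and 72.1 CPM at 10 °C and was not called (log2FC = -0.91 ± 0.27, adjusted p = 0.0646). Prdm16 (-0.15 ± 0.10) and Pparg (0.02 ± 0.16) were not called, and Zic1, a marker of the brown lineage, rose from a mean of 9.58 to 14.9 CPM (log2FC = 0.64 ± 0.14, adjusted p = 0.024). The count of lower members was 3 without 10 °C library 1, 8 without 10 °C library 2, 2 without 10 °C library 3 or 22 °C library 2 and 3 without 22 °C library 3, and it was 10 with library size only, where Zic1 was not called. Ppara lost its call without 10 °C library 3, 22 °C library 2 or 22 °C library 3, Cebpa without 10 °C library 1, 10 °C library 3 or 22 °C library 2, Ppargc1b without 10 °C library 1, 10 °C library 3, 22 °C library 2 or 22 °C library 3, and Zic1 without 10 °C library 1, 10 °C library 3, 22 °C library 1 or 22 °C library 2.

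Dio2, the deiodinase that activates thyroid hormone inside brown adipocytes, had 173, 181 and 476 CPM at 22 °C and 130.4, 157 and 137 CPM at 10 °C (log2FC = -0.97 ± 0.35, adjusted p = 0.11) and was not called. Thrb, a thyroid hormone receptor, was the only called member of 12, a fall from a mean of 84.7 to 59.6 CPM (log2FC = -0.51 ± 0.12, adjusted p = 0.0288), and it kept the call only without 22 °C library 3. In creatine and calcium cycling, proposed as heat sources beside UCP1, Ckb, the cytosolic brain creatine kinase, had 15.4, 15.4 and 31.3 CPM at 22 °C and 46.3, 73.6 and 48.7 CPM at 10 °C (log2FC = 1.43 ± 0.29, adjusted p = 0.0164). Alpl, a phosphatase that acts on phosphocreatine, had 18.02, 15.9 and 32.7 CPM at 22 °C and 49.4, 77.7 and 58.1 CPM at 10 °C (log2FC = 1.46 ± 0.27, adjusted p = 0.0113), and Ryr2, a calcium release channel, rose from a mean of 3.71 to 9.72 CPM (log2FC = 1.35 ± 0.36, adjusted p = 0.0438). Slc6a8, the creatine transporter, fell from a mean of 49.7 to 32.8 CPM (log2FC = -0.60 ± 0.12, adjusted p = 0.014). Ckmt2 and Ryr1, which also fell, belong to the muscle-enriched set, which summed to 42850, 30794 and 33228 CPM at 22 °C and to 21484, 22014 and 13031 CPM at 10 °C. Alpl and Ckb lost the call without 22 °C library 2, Slc6a8 without that library or 10 °C library 3, and Ryr2 kept it only without 10 °C library 2 or 22 °C library 3.

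Clock genes moved in both directions. Of the activators, Arntl, encoding BMAL1, had 27.1, 15.2 and 11.3 CPM at 22 °C and 43.05, 43.8 and 35.2 CPM at 10 °C (log2FC = 1.21 ± 0.28, adjusted p = 0.0252), and Npas2, its partner, rose from a mean of 1.74 to 5.37 CPM (log2FC = 1.73 ± 0.47, adjusted p = 0.0465). The targets of the activators that carry PAR bZIP domains were lower, Dbp with 12.8, 23.7 and 33.7 CPM at 22 °C and 4.7998, 3.47 and 6.87 CPM at 10 °C (log2FC = -2.22 ± 0.36, adjusted p = 0.00649) and Tef from a mean of 228 to 129 CPM (log2FC = -0.82 ± 0.15, adjusted p = 0.00984). Per3, a repressor, had 69.8, 93.7 and 75.9 CPM at 22 °C and 34.5, 26.3 and 32.7 CPM at 10 °C (log2FC = -1.36 ± 0.15, adjusted p = 0.00117), and Nr1d2, which represses Arntl, 97.6, 102 and 118 CPM at 22 °C and 59.3, 33.04 and 52.5 CPM at 10 °C (log2FC = -1.13 ± 0.20, adjusted p = 0.00921). Bhlhe40, a repressor that binds E-boxes and answers to many stimuli, had 43.5, 45.7 and 53.3 CPM at 22 °C and 176, 243 and 248 CPM at 10 °C (log2FC = 2.22 ± 0.16, adjusted p = 0.000221). Cry1 rose from a mean of 13.6 to 33.9 CPM. Nr1d1 (-0.73 ± 0.25) and Per2 (-0.45 ± 0.28) were not called. The hour of tissue collection is not given in the sources used here. Without 10 °C library 2 or 22 °C library 2 the number of higher clock genes was 3 in place of 5; Arntl lost its call without 10 °C library 1 or either of these, Tef without 10 °C library 3, and Npas2 with library size only and without any single library but 22 °C library 1. Per3 shares its annotated span with Camta1, and Dbp part of its span with Sphk2.

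**Figure D5:**
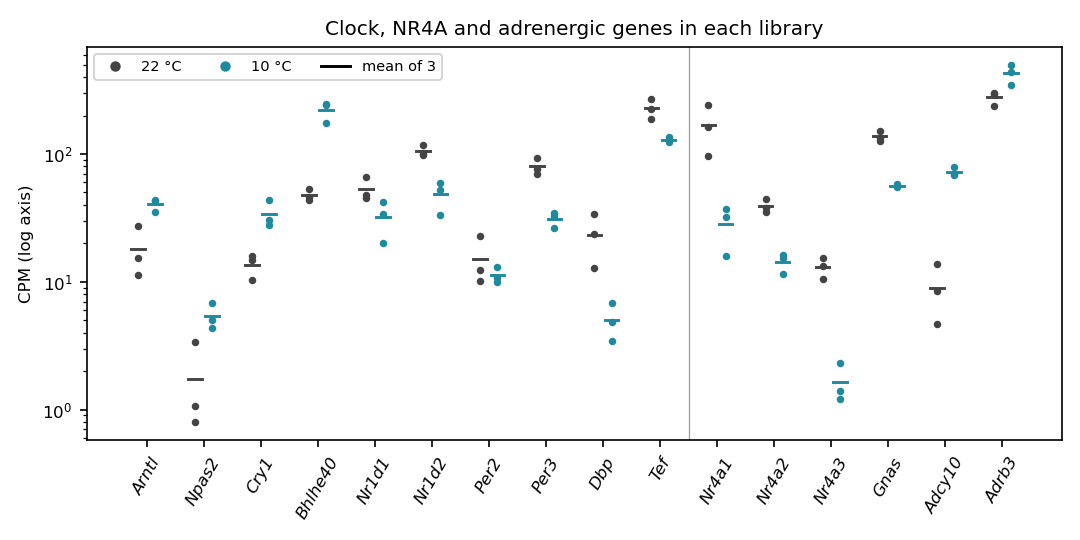
CPM (log axis) of clock genes (left of the line) and of NR4A and adrenergic genes (right) in each iBAT library at 22 °C (grey) and 10 °C (teal), with the mean of 3 as a bar. Arntl, Npas2, Cry1 and Bhlhe40 lie higher in the cold libraries, Nr1d2, Per3, Dbp, Tef, the 3 NR4A genes and Gnas lower.

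The E-box CACGTG, bound by CLOCK and BMAL1, or the D-box TTATGTAA, bound by DBP and TEF, lay in the promoter windows of 6 of 16 clock genes with a window, against 9.15% of all genes, with both strands read. A match lay in 3 of the 7 called members with a window and in 3 of the 9 not called. Cry1, Per3 and Tef were the called genes with a match, and their stretches are shown because they moved in different directions, Cry1 upward and the others downward. Capitals mark the motif. Cry1 (minus strand, chr10:85185069-85185154) and Tef (plus strand, chr15:81802506-81802591) hold an E-box, and Per3 (minus strand, chr4:151044776-151044910) holds the D-box in 2 places.
Cry1: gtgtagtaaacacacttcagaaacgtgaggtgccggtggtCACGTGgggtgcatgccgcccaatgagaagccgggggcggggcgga
Per3: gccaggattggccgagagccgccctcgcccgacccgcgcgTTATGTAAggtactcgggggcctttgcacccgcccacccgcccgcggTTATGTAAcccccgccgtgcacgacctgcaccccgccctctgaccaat
Tef: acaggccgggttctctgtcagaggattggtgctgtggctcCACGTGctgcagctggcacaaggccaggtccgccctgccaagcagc

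Of 28 chaperone and folding genes 6 were higher and 1 lower. Hspb8, a small heat shock protein that works with BAG3, had 90.9, 67.1 and 66.8 CPM at 22 °C and 163, 195 and 163 CPM at 10 °C (log2FC = 1.21 ± 0.15, adjusted p = 0.00202). Fkbp4, an HSP90 cochaperone, rose from a mean of 139 to 235 CPM, Dnajb1, an HSP40, from a mean of 43.1 to 73.5 CPM, Hspa8, the constitutive HSP70, from a mean of 242 to 371 CPM, and Chordc1, another HSP90 partner, from a mean of 75.7 to 121 CPM. The member that fell was Cryab, another small heat shock protein (from a mean of 69.9 to 46.2 CPM). Hspa1a and Hspa1b, near-identical inducible HSP70 genes whose reads cannot be separated with certainty, were at 7.07 and 7.17 CPM and 6.64 and 6.78 CPM in the means (log2FC 0.04 ± 0.41 and 0.05 ± 0.40). Scaled by library size 3 were higher and 2 lower, and the higher count was 3 without 10 °C library 2, 2 without 10 °C library 3 and 1 without 22 °C library 2. Cryab kept the call only without 10 °C library 1, Chordc1 only without 22 °C library 1, Fkbp4 lost it without 22 °C library 2, Dnajb1 without that library or 10 °C library 3, and Hspa8 without those, 10 °C library 2 or 22 °C library 1. Chordc1 and Hspa8 also lost it with library size only.

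The heat shock motif GAANNTTC, read on both strands, was present in the windows of 12 of 22 list members and in 9.04% of all genes. It was in 3 of the 5 called members with a window and in 9 of the 17 not called. The stretches of Chordc1 (plus strand, chr9:18292223-18292316), which holds it in 2 places, and Hspb8 (minus strand, chr5:116422815-116422902), the member with the smallest p, are given with the motif in capitals.
Chordc1: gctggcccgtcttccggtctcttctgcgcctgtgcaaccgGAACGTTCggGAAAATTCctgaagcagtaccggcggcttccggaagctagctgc
Hspb8: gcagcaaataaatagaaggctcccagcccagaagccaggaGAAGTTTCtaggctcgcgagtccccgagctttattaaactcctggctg

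Of the cold-inducible RNA-binding genes neither passed the test by edgeR, DESeq2 or the exact test, and 1 had an unadjusted p under 0.05: Cirbp had 17.4, 20.5 and 14.7 CPM at 22 °C and 19.7, 13.9 and 16.5 CPM at 10 °C (log2FC = -0.06 ± 0.17, adjusted p = 0.851) and Rbm3 22.1, 23.4 and 24.7 CPM at 22 °C and 19.8, 16.7 and 20.5 CPM at 10 °C (log2FC = -0.30 ± 0.13, adjusted p = 0.157). In the stress lists Atf5, a factor of the mitochondrial stress response, had 64.9, 56.9 and 56.01 CPM at 22 °C and 175, 154 and 166 CPM at 10 °C (log2FC = 1.48 ± 0.11, adjusted p = 0.000292) and shares part of its span with Nup62. Manf, a secreted protein of the endoplasmic reticulum, rose from a mean of 27.9 to 55.7 CPM (log2FC = 1.002 ± 0.12, adjusted p = 0.00187) and lies inside the span of Dcaf1. Sesn2, a target of ATF4 and p53, fell from a mean of 35.9 to 17.4 CPM (log2FC = -1.06 ± 0.20, adjusted p = 0.0131), and Atf4 was at 132 and 123 CPM in the mean (log2FC = -0.11 ± 0.18, adjusted p = 0.742). Of 27 members 4 were higher and 2 lower, with a higher count of 2 without 10 °C library 3 or 22 °C library 2, and 0 lower without the latter.

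Iron and redox genes split as well. Tfrc, the transferrin receptor that brings iron into cells, had 322, 414 and 184 CPM at 22 °C and 104, 93.9 and 111 CPM at 10 °C (log2FC = -1.58 ± 0.26, adjusted p = 0.00677), whereas Ftl1, the light chain of the iron store ferritin, had 166, 148 and 185 CPM at 22 °C and 298, 304 and 254 CPM at 10 °C (log2FC = 0.78 ± 0.13, adjusted p = 0.00848). Gclm, which limits glutathione synthesis, rose from a mean of 31.9 to 54.7 CPM (log2FC = 0.78 ± 0.11, adjusted p = 0.00364), Srxn1, which repairs peroxiredoxins, from a mean of 59.1 to 104 CPM (log2FC = 0.82 ± 0.11, adjusted p = 0.00251), and Gpx3, a secreted glutathione peroxidase, fell from a mean of 891 to 474 CPM (log2FC = -0.91 ± 0.15, adjusted p = 0.00671). Mt1, a metallothionein, was at 116 and 113 CPM in the means and was not called (log2FC = -0.04 ± 0.13, adjusted p = 0.866). Of 25 members 6 were higher and 2 lower, and the higher count was 3 without 10 °C library 3 and 2 without 22 °C library 2, which also ended the call for Ftl1. How many Ftl1 reads were lost to near-identical pseudogenes was likewise not tested.

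Some secreted proteins changed beside Bmp8b. Kng2, a kininogen in the liver-enriched set, had 62.1, 74.7 and 47.2 CPM at 22 °C and 124, 148 and 145 CPM at 10 °C (log2FC = 1.18 ± 0.17, adjusted p = 0.00376), and Edn1, the vasoconstrictor endothelin, rose from a mean of 2.14 to 4.36 CPM (log2FC = 1.06 ± 0.27, adjusted p = 0.0377). Nrg4, a growth factor of brown fat, had 206, 214 and 201 CPM at 22 °C and 152, 203 and 175 CPM at 10 °C and was not called (log2FC = -0.23 ± 0.13, adjusted p = 0.29), and Vegfa overlapped (log2FC = -0.04 ± 0.12, adjusted p = 0.848). Of 28 members tested 4 were higher and 1, Epdr1, was lower, which is 17.9% called beside 11.3% of all genes tested. Among adipokines Cfd, which encodes adipsin, had 1498, 1352 and 1727 CPM at 22 °C and 895, 913 and 685 CPM at 10 °C (log2FC = -0.88 ± 0.17, adjusted p = 0.0139), Rarres2, encoding chemerin, fell from a mean of 24.9 to 16.5 CPM, and Adipoq, encoding adiponectin, had 1292, 1318 and 1723 CPM at 22 °C and 1036, 979 and 1051 CPM at 10 °C without a call (log2FC = -0.499 ± 0.16, adjusted p = 0.0799). Lep, encoding leptin, overlapped, with 26.3, 59.7 and 22.5 CPM at 22 °C and 66.5, 12.4 and 47.5 CPM at 10 °C (log2FC = 0.23 ± 0.54, adjusted p = 0.822). Npnt, a matrix protein, was the 1 member of that list to rise (from a mean of 3.35 to 13.3 CPM, log2FC = 2.04 ± 0.31, adjusted p = 0.0048). Cfd lost the call without 10 °C library 3, Rarres2 without that library, 10 °C library 2 or 22 °C library 2, and Edn1 and Epdr1 kept theirs only when 10 °C library 2 or 22 °C library 1 (Edn1) or 10 °C library 1 (Epdr1) was left out.

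Markers of the other cell types of the tissue gave few calls. Emcn, endomucin of venous and capillary endothelium, had 31.6, 30.8 and 26.98 CPM at 22 °C and 58.6, 54.8 and 56.2 CPM at 10 °C (log2FC = 0.93 ± 0.11, adjusted p = 0.0015) and was the only call among 19 endothelial markers (1 higher and 2 lower with library size only), whose median log2FC was 0.06. Mcam, a marker of pericytes and vessels, had 96.6, 125 and 114 CPM at 22 °C and 31.1, 49.9 and 38.3 CPM at 10 °C (log2FC = -1.49 ± 0.18, adjusted p = 0.00167), the only call of 10 pericyte and smooth muscle markers. Of 16 macrophage markers 15, Adgre1 included (log2FC = 0.03 ± 0.16, adjusted p = 0.925), were not called. All 7 MHC class II genes had a log2FC below 0 and 3 were called lower, H2-Aa with 97.7, 80.7 and 88.4 CPM at 22 °C and 63.7, 63.5 and 49.6 CPM at 10 °C (log2FC = -0.59 ± 0.13, adjusted p = 0.0236); these calls held in few of the fits without 1 library, none of them for H2-Ab1 and H2-DMb1. Fibroblast markers had a median of -0.44 with 0 of 12 called by edgeR (3 lower with library size only), 5 at an unadjusted p under 0.05, and 3 called lower by DESeq2 and by the exact test. No member of the interferon, neutrophil, B cell, Schwann cell or keratinocyte lists was called by edgeR, with 1 interferon and 2 Schwann cell genes at an unadjusted p under 0.05 and 1 interferon gene called by DESeq2 and by the exact test, and no T cell marker was abundant enough to be tested. Collagen and matrix genes gave 7 lower and 1 higher of 46, with 38 of 46 below 0, 4 lower without 10 °C library 3 and 12 by DESeq2 or the exact test; Col12a1 had 39.2, 49.8 and 109 CPM at 22 °C and 14.9, 27.1 and 16.9 CPM at 10 °C (log2FC = -1.76 ± 0.38, adjusted p = 0.0198), a call lost without 10 °C library 1 or 10 °C library 3. Scaled by library size 19 of the 46 were lower.

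Of 33 cell cycle genes tested 5 were higher and 0 lower by edgeR (2 lower at an unadjusted p under 0.05, 1 by DESeq2 and by the exact test), and with library size only 2 were higher and 2 lower. Mki67 had 5.304, 2.91 and 3.88 CPM at 22 °C and 6.83, 7.89 and 7.95 CPM at 10 °C (log2FC = 0.92 ± 0.23, adjusted p = 0.0334) and Ccnd1 6.79, 6.15 and 9.22 CPM at 22 °C and 12.1, 13.7 and 12.98 CPM at 10 °C (log2FC = 0.80 ± 0.18, adjusted p = 0.0239). The count was 1 to 3 whenever a single library was left out: 2 without 10 °C library 1 or 22 °C library 3, 1 without 10 °C library 2, 10 °C library 3 or 22 °C library 2, and 3 without 22 °C library 1. Among red cell genes Hba-a1, whose near-identical copy Hba-a2 shares its reads, was higher (from a mean of 42.8 to 71.5 CPM), a call lost without 10 °C library 1, 10 °C library 2, 22 °C library 1 or 22 °C library 3. Ion channel genes gave 6 higher and 8 lower of 78; 3 of the lower ones, Clcn1, Scn4a and Cacng6, were muscle-enriched. Lower counts were 17 by DESeq2 and 19 by the exact test, and also 19 with library size only. The lower count was 5 without 10 °C library 2, 2 without 10 °C library 3 or 22 °C library 2 and 3 without 22 °C library 1, the higher count 3 without 10 °C library 3 and 2 without 22 °C library 2. Proteasome genes gave 5 higher and 2 lower of 49 (2 and 3 with library size only), with higher counts of 2 without 10 °C library 1 and 1 without 10 °C library 3 or 22 °C library 2; the lower pair, Psme1 and Psmb9, of which neither was called without 10 °C library 3 or 22 °C library 2, encode an activator and a catalytic subunit induced by interferon.

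Of the 12791 genes tested, 11720 also had a value in iBAT of another experiment, in which 4 weeks of 34 °C were set against separate 22 °C controls (3 libraries each of wild type male C57BL/6J mice, 12 weeks old by the labels, sequenced and counted separately). The columns of that table name the tissue and treatment but not the library, and were assigned to these groups from those names. There 1661 of 12331 genes (13.5%) were higher and 1900 (15.4%) lower at 34 °C. Scaling mattered more in that table: with library size only 4234 were higher and 684 lower, and the median log2FC was 0.30. By the study's methods the supplier of the mice, the library kit and the sequencing site also differed between the experiments. No test was made across the tables. For Fasn the log2FC was 1.32 ± 0.36 for 10 °C and -2.75 ± 0.54 for 34 °C, for Acly 1.64 ± 0.39 and -1.96 ± 0.44, for Me1 2.09 ± 0.32 and -2.10 ± 0.53, and for Pfkl 1.78 ± 0.22 and -0.86 ± 0.09. In the fatty acid synthesis list 19 of 28 members were lower and 2 higher at 34 °C (18 and 4 with library size only), and in glycolysis 17 of 35 were lower and 1 higher (14 and 5). Cholesterol synthesis had 8 of 24 lower and 1 higher. Not every list went the opposite way to 10 °C. At 34 °C the cell cycle list had 23 of 35 higher and 0 lower by edgeR (26 and 0 with library size only). The adrenergic and cAMP list had 2 of 34 higher and 11 lower (7 and 8 with library size only). Adcy10 had a log2FC of -4.09 ± 0.57, Ucp1 of -2.26 ± 0.20 and Dio2 of -3.28 ± 0.74 at 34 °C, beside 3.05 ± 0.31, 0.86 ± 0.29 and -0.97 ± 0.35 at 10 °C. Nnat had 2.98 ± 0.38 beside -2.19 ± 0.36, and Aqp1, a water channel, 0.98 ± 0.09 beside -1.68 ± 0.17. Nr4a1 (-0.08 ± 0.70) and Dbp (0.65 ± 0.25), which fell at 10 °C, were not called at 34 °C.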

How the data were processed

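Interscapular brown fat RNA of male C57BL/6J mice was sequenced after adaptation to 10 °C or at 22 °C (3 libraries each, every one a pool of 2 mice). Per the labels and the study's methods, the authors made libraries with the NEBNext Ultra kit, aligned reads to mm10 with STAR and deposited raw HTSeq counts per gene, with replicates kept apart. The submitters' processing notes list STAR 2.5.3a, HTSeq 0.6p1 and Picard 1.141. Whether counting used strand is not given in the sources used here. Mice were housed 2 per cage by the study's methods, but nothing in the labels says whether libraries come from separate cages or litters. The p-values set the difference between the groups against the spread between these pooled samples.

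Counts were scaled by TMM. Genes whose average log2 CPM exceeded 0 entered the test in edgeR 4.0.16 (R 4.3.3; quasi-likelihood F-test, Benjamini-Hochberg adjustment over all 12791 genes). A standard error is the log2FC divided by the square root of F. The study's methods use edgeR's exact test, which was tried here as an alternative beside DESeq2 1.42.0, library size in place of TMM, other filters, the replicate number as a block, and leaving out each library. Scripts were tested on simulated data.

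Named genes were the 12 largest called rises and falls with groups that did not overlap and a mean of at least 5 CPM in the higher group (Ucp1, the Elovl genes and Sorl1 left out), the 5 largest among liver- or muscle-enriched genes under the same limits, up to 4 members of each list with the smallest p in each direction, and key members; 31 others were named after their values were seen. Results for some list members are not reported here by name. The members and lists were chosen with earlier results of these data known. Liver enrichment was meant to use all brain libraries at 22 °C, but 1 of these had Alb at 37865 CPM, against 1.57 and 2.88 CPM in the others, and no gene passed; it was left out of that reference, a choice made after seeing the data, as were the alternatives for the marker sums, the epididymal set and the lists of the pentose phosphate pathway and immediate early genes. Coordinates are from GENCODE M21 (GRCm38) and promoter windows from RefSeq (GRCm38.p6). The 34 °C values come from a separate count table that was fitted on its own.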

Additional observations from a re-analysis of the deposited data

How the results depend on the processing

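No called gene was called in the opposite direction under any alternative tried. With library size only the calls were 489 higher and 1449 lower, in place of 796 and 649, and all 489 were among the 796. The edgeR exact test called 1045 lower and DESeq2 896. By the study's limit (unadjusted p at most 0.05 and a fold above 1.5) 29 muscle markers and 23 ion channels were lower, and 33 hepatocyte markers were lower when genes were kept from 1 count up. Leaving out 1 library in turn gave 326 to 983 higher, 210 to 778 lower and 536 to 1761 in all, with the lowest values without 22 °C library 2. In the 34 °C comparison this gave 1870 to 3455 calls in place of 3561; there 2260 were called without 22 °C library 1, 2022 without 22 °C library 3 and 1870 without 34 °C library 1. Of the 231 named genes 19 lost their call with library size only, 59 without 10 °C library 3 and 68 without 22 °C library 2. The summed hepatocyte markers differed by log2 -3.51 to -3.16 and the muscle markers by -1.26 to -0.68 with 1 library left out.

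Same-numbered libraries correlated at 0.43, -0.13 and 0.003 in their deviations from the group means, so the numbers were not taken to pair the samples. With the replicate block 948 genes were higher and 944 lower, with 34 muscle markers, 17 ion channels, 10 adrenergic genes and 9 transcription factors of brown fat lower in place of 8, 8, 5 and 5, and the 10 °C libraries did not all correlate best with their own number. Depth of 11627535 to 23222905 reads limits what can be said of genes below 1 CPM, and standard errors are from 3 pooled libraries a group.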

Other observations

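Enzymes of the pentose phosphate pathway, which supplies NADPH and ribose, were put together as a list after their values were seen, so the list itself has no test. Of 8 members 5 were called higher, with a median log2FC of 0.95. Pgd, the second dehydrogenase of the oxidative branch, had 239, 247 and 154 CPM at 22 °C and 672, 668 and 765 CPM at 10 °C (log2FC = 1.72 ± 0.19, adjusted p = 0.00117 by edgeR). G6pdx, which opens the pathway, had 168, 182 and 176 CPM at 22 °C and 341, 479.9 and 389 CPM at 10 °C (log2FC = 1.20 ± 0.15, adjusted p = 0.00187 by edgeR). Rpia, Tkt and Taldo1 of the branch that rearranges sugars rose by log2FC 1.34 ± 0.11, 1.02 ± 0.22 and 0.88 ± 0.16.

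Immediate early genes, a list also made after seeing the values, were below 0 in 18 of 19 members, with 7 called lower and a median log2FC of -0.49 (9 lower with library size only). Egr1, a zinc finger factor, had 38.6, 64.99 and 50.5 CPM at 22 °C and 31.9, 21.2 and 29.5 CPM at 10 °C (log2FC = -0.90 ± 0.21, adjusted p = 0.0268 by edgeR), and Junb, a subunit of AP-1, had 46.9, 84.9 and 78.2 CPM at 22 °C and 35.1, 37.5 and 41.8 CPM at 10 °C (log2FC = -0.88 ± 0.20, adjusted p = 0.0261 by edgeR).

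Aqp1, the water channel of capillaries, had 226, 348 and 300.1 CPM at 22 °C and 81.7, 102 and 89.7 CPM at 10 °C (log2FC = -1.68 ± 0.17, adjusted p = 0.000956 by edgeR), and Hp, which encodes haptoglobin and is made by liver and fat, had 728, 684 and 675 CPM at 22 °C and 254, 261 and 254 CPM at 10 °C (log2FC = -1.44 ± 0.12, adjusted p = 0.00041 by edgeR).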
